A study of Mus musculus with 4 samples.

Results

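The Hippo pathway and the genes switched on by its effector YAP were followed through single-cell libraries of mouse bile duct epithelium. The group holds 39 listed genes, 21 core pathway genes and 18 targets, out of 50766 genes in the gene table, and all 39 are in the table of each of the 4 libraries. The members were taken by name, from lists drawn up with earlier results of these data known. The genotype is Sox9EGFP throughout, and the labels call the cells biliary epithelial cells (BECs), which line the bile ducts. Each library has its own number in the labels, read here as 1 mouse, and p-values measure the spread between these samples. In the sham group, 2 mice were examined 7 days after a mock operation, and in the other group 2 mice were examined 7 days after bile duct ligation (BDL), which ties off the duct and dams up bile. The Sox9EGFP genotype is shared by both groups, and nothing in the labels gives another allele, agent, strain or age. With the mouse as replicate, n = 2 per group. Replicates are numbered by sample order, which pairs nothing.

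The Hippo pathway restrains growth through a kinase cascade. The kinases Stk3 and Stk4 (MST), with the scaffold Sav1 and the membrane proteins Nf2 and Wwc1, activate the kinases Lats1 and Lats2. These phosphorylate YAP (Yap1) and its relative TAZ (Wwtr1), which then stay out of the nucleus. When the cascade is quiet, YAP and TAZ enter the nucleus and switch on genes through the TEAD factors (Tead1 to Tead4), while Vgll4 competes for the same TEAD surface. The angiomotins (Amot, Amotl1, Amotl2), Ptpn14 and Ajuba act on YAP or LATS at cell junctions and in the cytoplasm. Lats2 and Amotl2 are known both as brakes on YAP and as genes that YAP switches on. Among the targets, Ankrd1, Ccn1 (Cyr61) and Ccn2 (CTGF) are the most widely used readouts. In the liver, YAP is known for control of organ size and for its high activity in bile duct cells compared with hepatocytes. Most of this control acts on proteins, so the mRNA of a core gene is not a measure of pathway activity.

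The promoters of Ankrd1, Ccn1 and Amotl2 are shown because these 3 members are part of the cell-to-cell pattern described further on and hold the letters searched for. Of the other members called higher in Ankrd1-positive cells, Vgll4 and Wwtr1 each held 1 match, and Lats2, F3, Wwc1, Amotl1 and Myof held 0. Ccn2, also called higher there, had no promoter in the RefSeq table. Each is the 250 bases before the gene's start, 5′ to 3′ on the gene's own strand, from RefSeq (GRCm38.p6). Capitals mark GGAATG, the core of the TEAD recognition sequence, or CATTCC, its reverse complement.
Ankrd1: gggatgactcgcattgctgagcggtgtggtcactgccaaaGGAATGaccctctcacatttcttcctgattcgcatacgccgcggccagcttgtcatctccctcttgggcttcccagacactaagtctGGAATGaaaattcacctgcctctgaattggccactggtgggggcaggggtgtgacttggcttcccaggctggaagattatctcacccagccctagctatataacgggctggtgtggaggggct
Ccn1: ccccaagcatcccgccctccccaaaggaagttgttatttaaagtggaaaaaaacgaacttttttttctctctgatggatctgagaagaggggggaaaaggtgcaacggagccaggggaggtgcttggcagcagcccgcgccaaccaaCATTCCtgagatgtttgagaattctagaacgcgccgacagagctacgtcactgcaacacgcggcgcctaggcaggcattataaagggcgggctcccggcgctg
Amotl2: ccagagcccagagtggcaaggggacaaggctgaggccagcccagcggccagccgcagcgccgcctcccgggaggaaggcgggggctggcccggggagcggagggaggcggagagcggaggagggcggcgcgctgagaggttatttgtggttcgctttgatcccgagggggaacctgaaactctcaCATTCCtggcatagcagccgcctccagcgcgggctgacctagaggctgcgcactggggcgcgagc
The Ankrd1 sequence lies at chr19:36119845-36120094 on the minus strand, and its 2 matches begin 210 and 123 bases before the start. The Ccn1 sequence lies at chr3:145649986-145650235 on the minus strand, with 1 match in reverse complement that begins 103 bases before the start. The Amotl2 sequence lies at chr9:102717554-102717803 on the plus strand, with 1 match in reverse complement that begins 65 bases before the start. Of the 39 members, 29 had a promoter in the RefSeq table, and 14 of those (48.3%) held the 6 letters on either strand, against 14.4% of all 27025 genes in it. The split was 10 of 18 core genes and 4 of 11 targets. A match is a description of the letters and shows no binding, and the counts came from another build, GRCm39.

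The 4 libraries held 2089 to 4065 cells, and their totals ran from 10024577 to 33809650 UMIs (unique molecular identifiers, counts of single transcripts). The median cell held 3260 and 2610 UMIs in sham mice and 7058 and 7793 UMIs after BDL, at about 2.2 reads per UMI. No cell barcode was shared between libraries. The group name inside the cell tables goes against the sample label for sham replicate 2 and for BDL replicate 2. Groups below are those of the sample labels, and each library's value is given for that reason. Of the clusters of all cells, the largest held 1034, 842, 3 and 3 cells and the next 1, 1, 500 and 1099 cells in the order sham replicates 1 and 2, BDL replicates 1 and 2. BDL replicate 2 also stood apart in Xist, at 1918 CPM against 7.72 to 10.3 CPM in the others. What lies behind this cannot be told apart from other gaps between the BDL replicates, and its part in the values below was not tested. CPM is the usual depth-scaled count, with edgeR's TMM factors where a test is given. Per-library values below keep the order sham replicate 1, sham replicate 2, BDL replicate 1, BDL replicate 2.

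BEC-like cells, named from clusters high in biliary markers such as Krt19, Epcam and Cldn7, made up 10954 of the 12180 cells kept (2610, 2584, 1962 and 3798 cells). The clusters were built without the 39 members. Mesenchymal-like cells, named from markers such as Col1a1, Pdgfrb and Lrat, were the next class with 187, 416, 71 and 133 cells. Endothelial-like cells numbered 40, 122, 19 and 34, macrophage-like cells 11, 14, 18 and 52, and hepatocyte-like cells 2, 36, 8 and 34.

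In BEC-like cells after BDL, a subset of YAP targets was higher, led by Ccn2, Myof and, at a low level, Axl. Ankrd1 and Ccn1 did not pass the test. Among core genes the upstream kinases Stk3 and Stk4 and the factor Tead1 were higher, and of the genes that restrain YAP, Amotl1 was higher and Vgll4, Ptpn14 and Amotl2 were lower. Of the 37 members that passed the filter on low counts, 10 were higher and 6 lower in the quasi-likelihood test of edgeR, with p-values adjusted by the Benjamini-Hochberg method over all genes. Over all 15965 genes tested, 27.2% were called, 14.3% higher and 12.9% lower, so BDL moved a large part of the transcriptome of these cells. Vgll3 and Foxf2 failed the filter, with 10, 4, 8 and 20 UMIs and 1, 0, 0 and 0 UMIs in BEC-like cells. Fewer molecules per cell and fewer cells with any cannot be told apart in these sums over cells. By role, 4 of 20 core genes were higher and 3 lower with a median log2 fold change of 0.02, and 6 of 17 targets were higher and 3 lower with a median of 0.44. The median over all genes was -0.02. The values of the 2 groups did not overlap for 28 of the 37 members (13 core genes and 15 targets), close to the 68.7% of all genes. All 16 called members had the same direction in the pair of libraries whose cell tables match the labels and in the other pair. Their groups did not overlap, so every pair of a sham and a BDL library had to give that direction. Nothing about the labels is read from it.

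**Figure D1:**
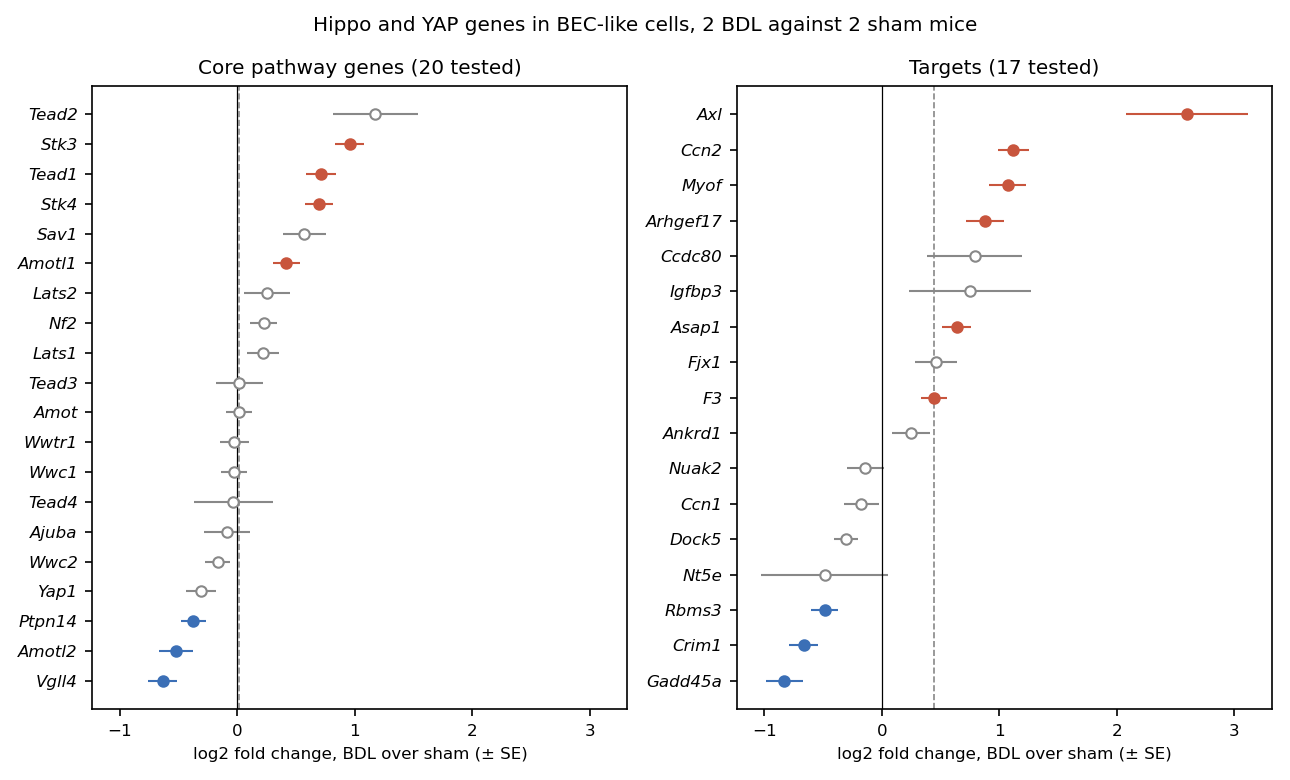
Log2 fold change, BDL over sham, of the 20 core genes and 17 targets tested in BEC-like cells (n = 2 mice per group, bars are SE, filled points passed an adjusted p of 0.05, red higher and blue lower, dashed line the median of the panel). Ccn2 and Myof sit near 1.1 and Axl at 2.59, while the core genes centre on 0.02.

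The effectors and their DNA-binding partners came first. Yap1, the effector itself, stood at 160, 183, 129 and 148 CPM. Both BDL libraries were below both sham libraries, but the log2 fold change of -0.31 ± 0.13 (SE) did not pass (edgeR adjusted p = 0.117). Wwtr1, which encodes TAZ, overlapped between groups at 308, 275, 272 and 302 CPM (log2 fold change -0.02 ± 0.12). Tead1 was at 246, 219, 352 and 410 CPM, a rise of 0.71 ± 0.13 on the log2 scale (adjusted p = 0.00996). Tead2 was scarce, at 2.43, 4.87, 6.71 and 9.37 CPM, and its difference of 1.18 ± 0.36 narrowly missed the threshold (adjusted p = 0.0524). Tead3 (25.3, 26.5, 20.96 and 31.0 CPM) and Tead4 (18.5, 29.99, 16.3 and 30.3 CPM) overlapped between groups, with log2 fold changes of 0.02 ± 0.20 and -0.03 ± 0.33. The sign for Wwtr1, Tead3 and Tead4 turned under some of the alternatives in the closing section. Tead1 was not called without sham replicate 1 (0.81) or sham replicate 2 (0.66), and Tead2 was called in 9 of its 17 alternatives, among them DESeq2 (1.25), no filter on low counts (1.31), and the fits without BDL replicate 1 (1.42) or sham replicate 2 (1.76). Yap1 was called without BDL replicate 2 (-0.41) and with genes of at least 10 CPM alone (-0.39).

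The cascade kinases MST1 and MST2 both rose. Stk3 stood at 82.4, 69.7, 153 and 142 CPM, with clear separation of the groups (log2 fold change 0.96 ± 0.13, edgeR adjusted p = 0.00326). Stk4 stood at 40.4, 39.5, 61.8 and 67.4 CPM (0.69 ± 0.12, adjusted p = 0.00749), a call lost without sham replicate 1 (0.72) or sham replicate 2 (0.70). The LATS kinases below them were not called. Lats1 was at 91.0, 82.5, 90.8 and 111 CPM and Lats2 at 29.6, 21.2, 27.0 and 33.7 CPM, with overlapping groups and log2 fold changes of 0.22 ± 0.14 and 0.25 ± 0.20. Lats1 was called without BDL replicate 1 (0.38). The scaffold Sav1 had a log2 fold change of 0.57 ± 0.18 (adjusted p = 0.0604).

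The proteins that hold YAP or TEAD in check split by gene. Amotl1 rose (106, 113, 140 and 152 CPM, log2 fold change 0.42 ± 0.11, edgeR adjusted p = 0.0343), while its relative Amotl2 fell (61.5, 59.4, 47.0 and 37.3 CPM, -0.52 ± 0.14, adjusted p = 0.0378). Vgll4, the competitor of YAP on TEAD, fell from 161 and 145 CPM to 104 and 92.7 CPM (-0.64 ± 0.12, adjusted p = 0.0110). Ptpn14, a phosphatase that keeps YAP in the cytoplasm, fell from 144 and 141 CPM to 107 and 112 CPM (-0.37 ± 0.10, adjusted p = 0.0396). The remaining core genes, Nf2, Wwc1, Wwc2, Amot and Ajuba, lay between -0.17 and 0.22 on the log2 scale and were not called. The call of Ptpn14 was lost in 10 of 18 alternative settings and that of Amotl2 in 7, more than for any other called core gene. Without single libraries Ptpn14 ran from -0.40 to -0.32 and was never called, and Amotl2 was called without BDL replicate 1 alone. Vgll4 was not called without sham replicate 1 (-0.55) or sham replicate 2 (-0.69), nor Amotl1 without BDL replicate 2 (0.36) or either sham library.

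The best known targets did not move as a unit. Ankrd1, a nuclear ankyrin repeat protein, stood at 849, 636, 856 and 909 CPM, with both BDL libraries above both sham libraries by a narrow margin (log2 fold change 0.25 ± 0.16, edgeR adjusted p = 0.285). With no filter on low counts it was called (0.38 ± 0.13, edgeR adjusted p = 0.0276), and in no other alternative. Over its 18 alternatives the log2 fold change of Ankrd1 ran from 0.080 to 0.48. Ccn1, a secreted matrix protein, stood at 996, 984, 768 and 983 CPM (-0.18 ± 0.15, adjusted p = 0.408), and without BDL replicate 1 its difference was 0.017. Ccn2, its close relative, rose: 40.3 and 40.1 CPM in sham mice against 79.8 and 94.6 CPM in the BDL libraries (1.12 ± 0.13, adjusted p = 0.00206). The 2 sham libraries were nearly equal, and the gap to the BDL libraries was far wider than the spread within either group.

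The other targets that rose were Myof, Arhgef17, Asap1, F3 and Axl. Myof, a membrane repair protein, stood at 200, 244, 415 and 516 CPM (log2 fold change 1.07 ± 0.16, edgeR adjusted p = 0.00483). Arhgef17, a guanine nucleotide exchange factor, stood at 82.6, 92.0, 137 and 183 CPM (0.88 ± 0.16, adjusted p = 0.0102). Asap1, a regulator of ARF GTPases, stood at 171, 159, 235 and 278 CPM (0.64 ± 0.13, adjusted p = 0.0130). In each of these 3 the lowest BDL library was well above the highest sham library. F3, tissue factor, rose less, from 371 and 395 CPM to 507 and 534 CPM (0.44 ± 0.11, adjusted p = 0.0289). Axl, a receptor tyrosine kinase, had the largest fold but a low level, 1.26, 1.37, 4.43 and 11.2 CPM (2.59 ± 0.52, adjusted p = 0.0135), and BDL replicate 2 was well above BDL replicate 1. The 11 mesenchymal markers summed to 106, 105, 17.2 and 31.7 CPM in the same cells, 0.305% of their level in mesenchymal-like cells. Axl stood at 3.46% of its level there. The 10 macrophage markers stood in BEC-like cells at 6.24% of their level in macrophage-like cells. By the mean of the 4 mice, Axl was at 4.54 CPM in BEC-like and 49.9 CPM in macrophage-like cells. The part of other cells or free RNA in the Axl values was not tested.

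The targets that fell were Gadd45a, a stress and DNA damage gene (59.3, 75.9, 40.5 and 35.5 CPM, log2 fold change -0.83 ± 0.16, edgeR adjusted p = 0.0110), Crim1 and Rbms3. Crim1, a membrane protein that binds BMPs, stood at 375, 417, 264 and 235 CPM (-0.67 ± 0.12, adjusted p = 0.0103). Rbms3, an RNA-binding protein, stood at 996, 927, 687 and 686 CPM (-0.49 ± 0.11, adjusted p = 0.0233). With the trend with gene span removed Rbms3 was not called (-0.23). Of the others, Fjx1 (0.46 ± 0.18, adjusted p = 0.0996) and Dock5 (-0.31 ± 0.10, adjusted p = 0.0709) were closest to the threshold, and Nuak2 overlapped between groups. Igfbp3, Ccdc80 and Nt5e were below 4 CPM in every library and were not called.

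**Figure D2:**
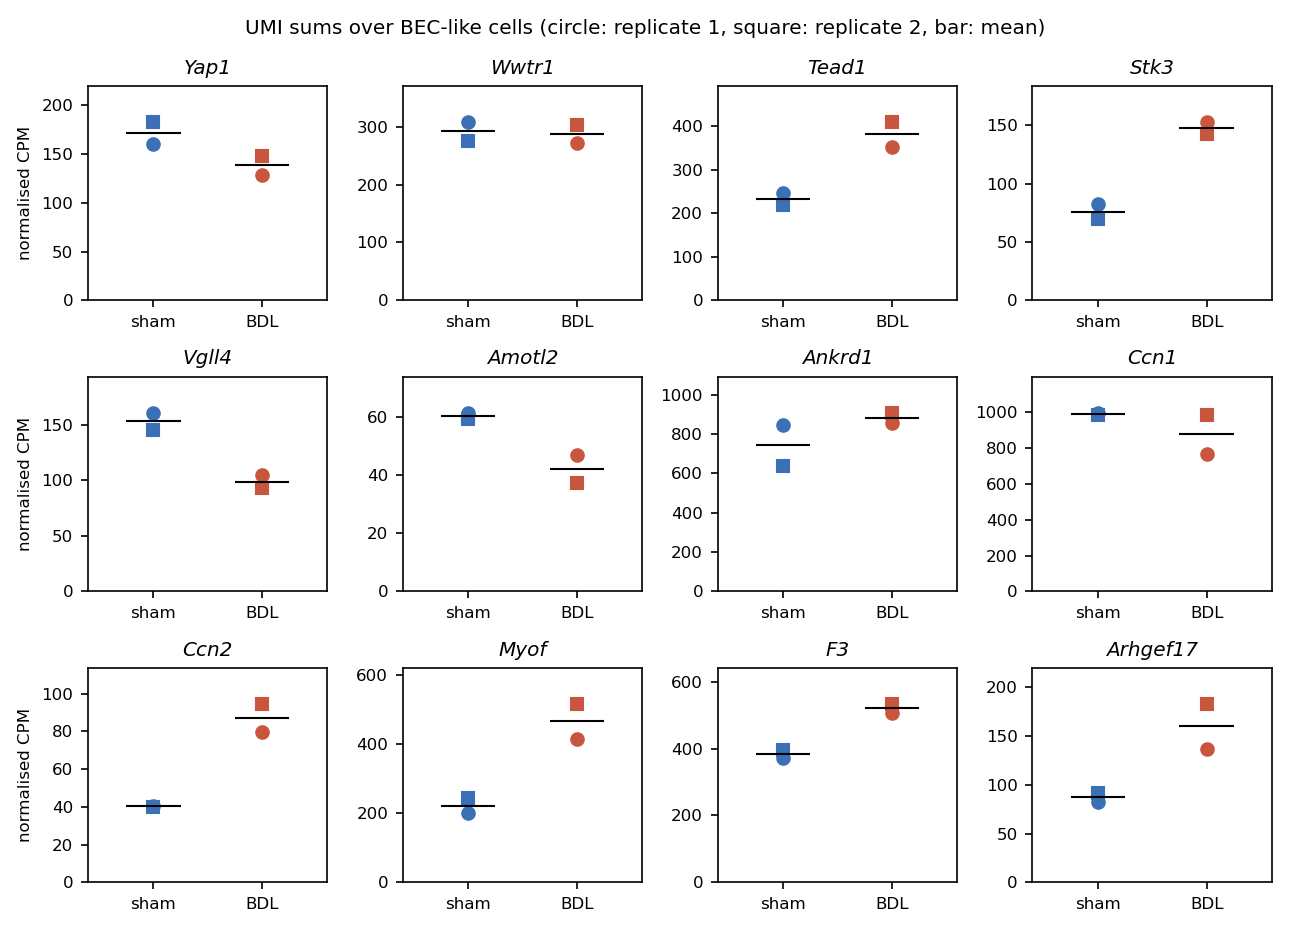
Level in each library (normalised CPM of UMI sums over BEC-like cells) of 12 members, with circles for replicate 1, squares for replicate 2 and bars for the mean of 2 mice. The groups are wide apart for Ccn2, Myof and Stk3 and overlap for Wwtr1, and the lower sham library sets the gap for Ankrd1.

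Each of the 4 libraries weighed on these counts. Without sham replicate 1 the fit called 3 members higher and 2 lower, without sham replicate 2 it called 5 and 0, without BDL replicate 1 it called 14 and 5, and without BDL replicate 2 it called 8 and 5. The share of all genes called moved as well, to 7.78%, 9.15%, 39.4% and 26.3% in the same order. In those fits 1 group had a single library, whose spread was taken to be that of the other group. Among the targets, F3 kept its call without BDL replicate 1 alone, Asap1, Axl and Rbms3 lost theirs without either sham library, Arhgef17 without sham replicate 1 (0.81), and Crim1 and Gadd45a without sham replicate 2 (-0.56 and -0.62). Ccn2, Myof and Stk3 kept direction and call in all 18 alternatives, which include these 4.

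The gap between targets and core genes in the BEC-like medians was 0.43 on the log2 scale, and it was not tested, since the members share 4 libraries and were not drawn at random. Immediate early genes such as Fos and Jun, which also respond to the handling of tissue, moved strongly between groups: 14 of 17 were lower and 1 higher in BDL, and their sum was 14248, 18532, 6345 and 6178 CPM. Without single libraries the core median ran from -0.02 to 0.29, the highest without BDL replicate 1, and the target median from 0.26 to 0.51, the lowest without BDL replicate 2. The gap was then 0.22 without BDL replicate 1 and 0.28 without BDL replicate 2. It was 0.23 with cells named one by one and 0.28 in sublibraries 1 to 4. With the 2 subclusters led by Fos or Jun removed, a setting added after the data were seen, the core median was 0.18, the target median 0.27 and the gap 0.09. In that setting 20.3% of all genes were called, 9 members were higher and 5 lower, and Amotl2, Ptpn14 and F3 were not called (log2 fold changes -0.25, -0.22 and 0.23). With genes of at least 10 CPM alone, the target median was 0.17 and the gap 0.23. The 10 hepatocyte markers fell in sum from 1229 and 1284 CPM to 221 and 167 CPM in the same cells, and the part of this in the members' values was not tested.

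Further genes of the pathway were read against the 27.2% of all genes called in BEC-like cells. Of 39 upstream and junctional genes tested (43 listed), 7 were higher and 3 lower, a share near that background. The smallest adjusted p among the rises belonged to Map4k4, a kinase that can act on LATS beside MST (353, 311, 1149 and 1278 CPM, log2 fold change 1.87 ± 0.13, edgeR adjusted p = 0.000437), and among the falls to Frmd6 (309, 282, 159 and 157 CPM, -0.91 ± 0.11, adjusted p = 0.00243). Of 32 further YAP-associated targets tested (36 listed), 10 were higher and 8 lower, against the same 27.2% of all genes. Among these rises was Ptgs2, an enzyme of prostaglandin synthesis (4.86, 6.37, 48.9 and 63.7 CPM, 3.34 ± 0.21, edgeR adjusted p = 0.000367). Among the falls the smallest adjusted p was that of the kinase Sgk1 (107, 99.5, 33.8 and 32.0 CPM, -1.65 ± 0.12, adjusted p = 0.000428). Both lists were drawn up with earlier results of these data known, and their counts are descriptions.

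No class besides BEC-like cells except the mesenchymal-like one had 30 cells or more in every library, and fewer members passed the test there. Of 34 members tested, 1 was higher after BDL and 5 were lower, in a background of 5.71% of 8811 genes (2.18% higher and 3.53% lower). Among the core genes only Amotl2 was called, and it fell from 130 and 109 CPM to 42.7 and 41.1 CPM (log2 fold change -1.51 ± 0.27, edgeR adjusted p = 0.0167). Among targets the secreted matrix protein Ccdc80 rose from 537 and 393 CPM to 2256 and 2081 CPM (2.22 ± 0.27, adjusted p = 0.00559). Igfbp3, which binds insulin-like growth factors, fell from 671 and 445 CPM to 104 and 172 CPM (-1.99 ± 0.31, adjusted p = 0.0125).

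The falls of Nuak2, an AMPK-related kinase (51.3, 46.4, 16.3 and 16.6 CPM, -1.55 ± 0.35), Nt5e, the ectoenzyme CD73 (49.9, 37.8, 14.2 and 12.3 CPM, -1.73 ± 0.39), and Asap1 (806, 734, 370 and 403 CPM, -0.99 ± 0.22) passed in this class as well (edgeR adjusted p = 0.0369, 0.0372 and 0.0357). The call of Nuak2 was lost without BDL replicate 2 (-1.57), that of Nt5e without BDL replicate 2 (-1.59) or sham replicate 1 (-1.52), and that of Asap1 without sham replicate 1 (-0.91). The core median was -0.10 and the target median -0.53, against 0.01 over all genes. The core median was 0.01 without BDL replicate 1, -0.25 without BDL replicate 2, -0.21 without sham replicate 1 and -0.0097 without sham replicate 2, and the target median ran from -0.54 to -0.44 in these fits. The median over all genes moved to -0.16 with DESeq2 and -0.13 with no filter on low counts, and the target medians there were -0.36 and -0.33. Ccn2, which rose in BEC-like cells, stood at 215, 125, 140 and 120 CPM in mesenchymal-like cells and was not called (-0.38 ± 0.29). Different clusters held most of this class in the 2 groups: one led by Colec10 and Lrat held 107, 316, 27 and 21 cells, one led by Col1a1 and Lox held 18, 16, 43 and 109, and one led by C7 and Igfbp3 held 62, 84, 1 and 3. The mix of clusters and a change within cells cannot be told apart in these sums. Igfbp3 is itself a leading gene of the cluster that was nearly absent from the BDL libraries.

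The difference between the BDL effects in the 2 classes was tested with the mouse as a block. The signed difference, the log2 fold change in BEC-like cells minus that in mesenchymal-like cells, was called above 0 for 7 of 38 members, where 4.58% of 15306 genes were called, 2.53% above 0 and 2.04% below. By edgeR 0 members were called below 0, and 1 member, Ccdc80, was below 0 at an unadjusted p under 0.05 (-1.43 ± 0.41). The 7 were Stk3 (difference of log2 fold changes 1.23 ± 0.28, edgeR adjusted p = 0.0201), Ccn2 (1.47 ± 0.30, 0.0101), Asap1 (1.63 ± 0.25, 0.00125), Arhgef17 (1.603 ± 0.27, 0.0024), Axl (1.53 ± 0.37, 0.0272), Igfbp3 (2.73 ± 0.40, 0.000917) and Nuak2 (1.44 ± 0.38, 0.0413). For Asap1 the effects pointed opposite ways, 0.64 in BEC-like and -0.99 in mesenchymal-like cells, both called. Igfbp3 and Nuak2 were called lower in mesenchymal-like cells and not called in BEC-like cells. Of these 7, the fit called 3 without BDL replicate 2, 4 without sham replicate 1, 4 without sham replicate 2 and all 7 without BDL replicate 1. Over all members the calls above 0 then numbered 4, 5, 4 and 7, and those below 0 numbered 1, 1, 1 and 0, with 2.57%, 3.99%, 2.75% and 5.7% of all genes called. Asap1, Igfbp3 and Arhgef17 kept their call in all 4 of these fits. Axl and Nuak2 kept theirs without BDL replicate 1 alone, Ccn2 lost its call without BDL replicate 2 (1.25) or sham replicate 1 (1.03), and Stk3 without BDL replicate 2 (1.34) or sham replicate 2 (0.88).

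To compare classes apart from clustering, cells were named one by one from at least 2 markers of a class, none of them a member, and sums were compared within mice. Against mesenchymal-like cells, 14 of 38 members were higher in BEC-like cells and 13 lower, in a background where 43.8% of genes were called (22.8% higher and 21% lower). The 13 include Vgll3 and Nt5e, which passed the filter through the mesenchymal-like sums alone and so had to differ, and nothing is read from that count. Core genes (7 higher, 5 lower with Vgll3) and targets (7 higher, 8 lower with Nt5e) held calls in both directions, also with Vgll3 and Nt5e left out. The medians of core genes and targets, with Vgll3 and Nt5e in them, were -0.04 and -0.61 on the log2 scale, against 0.12 over all genes. Wwc1, an upstream activator of LATS, stood at 533 ± 9.27 CPM in BEC-like and 21.6 ± 3.62 CPM in mesenchymal-like cells (SD, n = 4 mice; log2 ratio 4.63 ± 0.20). Ankrd1 stood at 788 ± 119 against 43.3 ± 26.3 CPM (4.31 ± 0.33), Tead4 at 22.9 ± 6.97 against 3.41 ± 3.30 CPM (3.01 ± 0.53) and F3 at 439 ± 75.1 against 63.0 ± 23.4 CPM (2.81 ± 0.30). All 4 were higher in BEC-like cells in each of the 4 mice.

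Among the widely used targets, direction against mesenchymal-like cells depended on the gene. Ccn1 was higher in BEC-like cells (907 ± 107 against 534 ± 159 CPM, log2 ratio 0.80 ± 0.18), while Ccn2 was lower (61.9 ± 26.7 against 154 ± 42.3 CPM, -1.38 ± 0.32). Yap1 itself was lower in BEC-like cells, at 152 ± 22.6 against 326 ± 32.8 CPM (-1.11 ± 0.18), and so was Lats2 (27.5 ± 4.64 against 92.5 ± 10.8 CPM, -1.76 ± 0.19). Wwtr1 did not pass the test (-0.04 ± 0.18). Members close to silent in BEC-like cells were the TEAD cofactor Vgll3 (0.777 ± 0.191 against 63.5 ± 15.03 CPM), Igfbp3 (2.03 ± 1.15 against 364 ± 269 CPM), Ccdc80 (3.31 ± 2.18 against 1367 ± 1009 CPM), Nt5e (1.08 ± 0.416 against 30.6 ± 19.8 CPM) and Axl (4.74 ± 4.68 against 208 ± 93.2 CPM). In these 5 the log2 ratios ran from -8.54 to -4.60. Those of Vgll3 and Nt5e, which passed the filter through the mesenchymal-like sums alone, are among them and are not read. Also higher in BEC-like cells were Dock5 (2.72), Fjx1 (1.67), Stk4 (1.48), Amot (1.31), Myof (1.24), Ptpn14 (0.93), Vgll4 (0.77), Gadd45a (0.71) and Lats1 (0.70), and also lower were Rbms3 (-1.79), Asap1 (-1.50), Wwc2 (-1.24), Crim1 (-0.83) and Amotl1 (-0.74). Of these calls, Fjx1, Lats1, Vgll4, Gadd45a, Ccn1 and Crim1 were each lost without at least 1 mouse, at log2 ratios of 0.56 (Lats1) to 1.59 (Fjx1) for the first 5 and -0.72 for Crim1.

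Against endothelial-like cells, 13 of 36 members were higher in BEC-like cells and 9 lower (25.2% of genes called, 17% higher and 8.22% lower). The endothelial-like cells held 360111 UMIs in all, which sets wide errors. The median log2 ratio was -0.13 in core genes and 1.15 in targets, against 0.59 over all genes. Ankrd1 (log2 ratio 4.72 ± 0.40), F3 (4.36 ± 0.44), Wwc1 (4.19 ± 0.41), Arhgef17 (4.81 ± 0.69), Myof (3.07 ± 0.40), Dock5 (2.44 ± 0.49), Ccn1 (2.06 ± 0.31), Lats1 (1.55 ± 0.46), Rbms3 (1.53 ± 0.30), Amot (1.29 ± 0.47) and Tead1 (1.02 ± 0.33) were higher in BEC-like cells, each in 4 of 4 mice. Tead3 and Fjx1 had 0 UMIs in endothelial-like cells of all mice. They passed the filter through the BEC-like sums alone, so nothing is read from the count of 13 that holds them. Against a floor of 3 UMIs over the class, which is 8.33 CPM, they were at least 3.27-fold and at least 1.94-fold higher in BEC-like cells. The effectors ran the other way: Yap1 was at 176 ± 28.1 CPM in BEC-like and 421 ± 128 CPM in endothelial-like cells (-1.23 ± 0.30), and Wwtr1 at 326 ± 23.4 against 559 ± 187 CPM (-0.74 ± 0.29, edgeR adjusted p = 0.0433), a call lost without any 1 of the 4 mice.

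Also lower in BEC-like than in endothelial-like cells were Amotl1 (-1.39), Lats2 (-1.42), Wwc2 (-1.26), Crim1 (-1.21), Asap1 (-1.15), Igfbp3 (-2.71) and Ccdc80 (-5.54). Without single mice, 9 to 11 members were called higher and 6 to 8 lower (16.8 to 19.5% of all genes called), the lowest counts coming without sham replicate 2 and without BDL replicate 2. Amot (0.72 without BDL replicate 2), Fjx1, Lats1, Tead1, Lats2 and Igfbp3 (-1.67 without sham replicate 1) were the other calls lost without some mouse. Against hepatocyte-like cells, which had enough cells in 3 mice alone, 5 of 34 members were higher in BEC-like cells and 0 lower by edgeR (5.46% of genes called, 2.51% higher and 2.95% lower), with 0 lower at an unadjusted p under 0.05 as well. They were Myof (log2 ratio 2.65 ± 0.61), Ankrd1 (2.46 ± 0.59), Rbms3 (2.09 ± 0.60), F3 (2.08 ± 0.57) and Amotl1 (2.05 ± 0.64), and without sham replicate 2 none of the 5 was called (1.51 to 2.68). Amotl1 (1.19) and Rbms3 (1.46) were also lost without BDL replicate 2, and Amotl1 (2.52) and F3 (2.23) without sham replicate 1. Yap1 and Wwtr1 were not called in that comparison, with 24 and 50 UMIs in hepatocyte-like cells. Named one by one, the hepatocyte-like cells numbered 23, 43, 4 and 22, and those of the 3 mice used held 314238 UMIs. In sham replicate 1 their median was 1204 UMIs, and clustering had named only 2 such cells there. The part of free RNA in these names was not tested. By the mean CPM of the 4 mice, weighted equally, 10 of the 21 core genes had their highest level in endothelial-like cells and 3 in BEC-like cells (Tead4, Wwc1 and Amot), whereas 6 of the 18 targets were highest in BEC-like and 7 in mesenchymal-like cells. One of the 6, Foxf2, rests on a single UMI. This is a bare order of levels with no test, and the smaller classes held as few as 2 cells in a mouse.

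**Figure D3:**
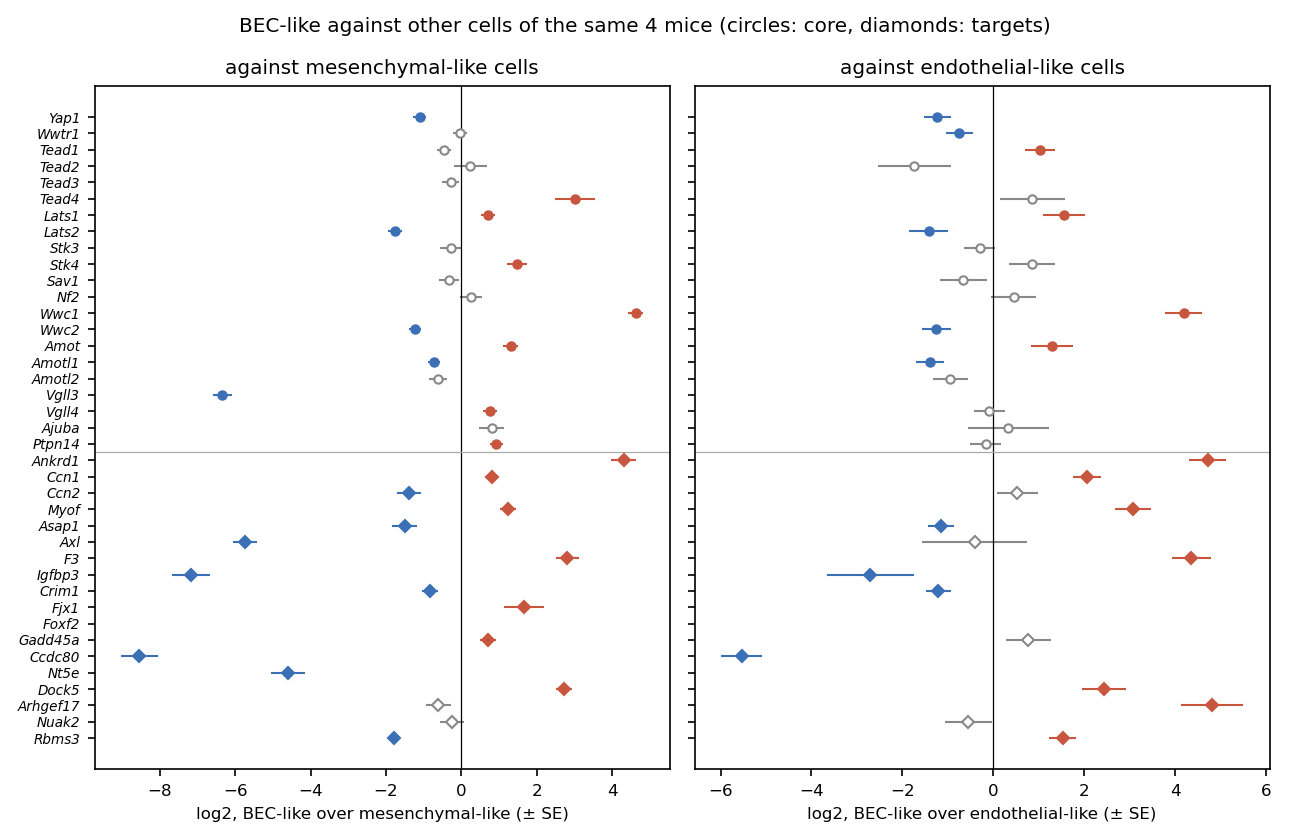
Log2 ratio of BEC-like over mesenchymal-like (left) and over endothelial-like cells (right) of the same 4 mice, with SE bars, circles for core genes, diamonds for targets and filled points past an adjusted p of 0.05. Yap1 sits left of zero in both panels and Ankrd1, F3 and Wwc1 at 2.81 to 4.72, while Tead3 and Fjx1 are not drawn on the right, having no UMI in endothelial-like cells.

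Within BEC-like cells a few targets varied more from cell to cell than any core gene. Each cell was thinned to 1500 UMIs so that depth was equal, which left out 660 shallower cells (283, 365, 2 and 10). The Fano factor, the variance of a gene's UMIs over cells divided by their mean, is near 1 where counting alone sets the spread. Among the 25 members with 100 UMIs or more in every library, it was 1.07 to 1.46 in the 14 core genes (median 1.15) and 1.08 to 6.201 in the 11 targets (median 1.41). Ankrd1 had the highest mean over libraries, 6.201 (4.54 to 7.72), then Ccn1 at 3.08 (2.47 to 3.46), F3 at 1.80, Crim1 at 1.79 and Ccn2 at 1.504. Wwc1 led the core genes at 1.46, and Yap1 and Wwtr1 stood at 1.24 and 1.27. The Fano factor rises with a gene's level when cells differ, and Ankrd1 and Ccn1 were among the most abundant members. Gadd45a, a target, was at 1.08.

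With equal depth, 36.8%, 26.9%, 39.7% and 39.02% of BEC-like cells held a UMI of Ankrd1, and 54.2%, 52.3%, 50.1% and 53.1% held one of Ccn1. Ccn2 was found in 5.16%, 5.32%, 8.57% and 10.6% of cells, both BDL libraries above both sham libraries. Exact binomial 95% intervals, which cover counting error alone, were 4.29 to 6.13% and 4.42 to 6.33% for Ccn2 in sham mice and 7.37 to 9.90% and 9.62 to 11.6% after BDL. The differences were 7.51, -1.68 and 4.34 percentage points for Ankrd1, Ccn1 and Ccn2 (exact permutation p = 0.33, 0.67 and 0.33, two-sided), where 0.33 is the smallest p that 2 against 2 allows. At equal depth, 5.18% of 463 sham mesenchymal-like cells and 9.85% of 203 such BDL cells held a UMI of Ankrd1, with median depths of 2603 and 6915 UMIs before thinning. For Ccn2 these shares were 14.0% and 12.8%. In macrophage-like cells, which should lack Ccn2, 0 of 18 sham cells (an exact 95% interval up to 18.5%) and 4.48% of 67 BDL cells held one, while 16.7% and 17.9% held a UMI of Ankrd1, 44.4% and 23.9% one of Ccn1, at median depths of 1930 and 5455 UMIs before thinning. The exact 95% intervals of the macrophage-like shares were 3.58 to 41.4% in sham and 9.61 to 29.2% in BDL cells for Ankrd1, and 21.5 to 69.2% and 14.3 to 35.9% for Ccn1. For Ccn2 the BDL interval was 0.933 to 12.5%. The sham intervals rest on 18 cells and are too wide to set the shares of sham BEC-like cells apart from background. Among 67 BDL cells the intervals are narrower, and the BDL shares of BEC-like cells lie above them for Ankrd1 and Ccn1 and inside for Ccn2. These macrophage-like cells were named by cluster, and naming one by one gave only 2, 2, 9 and 13 of them. Doublets also count as not removed, so these cells are no clean background. The comparison cannot tell expression from free RNA or doublets, and no share is read as expression from it. The part of free RNA in these shares was not tested. Without thinning, and with the 660 shallower cells kept, the Ankrd1, Ccn1 and Ccn2 differences were 20.8, 10.97 and 16.4 points, so the sign for Ccn1 turned in that setting, which changes both depth and cells.

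Cells with Ankrd1 were also higher in 4 other targets, Ccn1, Ccn2, F3 and Myof. BEC-like cells with at least 1 UMI of Ankrd1 after thinning were compared with the rest within each mouse. Here and in the splits below, positive says only that a cell held a UMI, whatever its source. Of the 32 other members tested, 10 were higher in Ankrd1-positive cells and 1 lower, against 6.95% of genes called (4.19% higher and 2.76% lower). Ccn1 stood at 1654, 1902, 1282 and 1658 CPM in positive cells and 728, 810, 477 and 533 CPM in negative cells (log2 ratio 1.37 ± 0.06, edgeR adjusted p = 1.94e-17). Ccn2 stood at 54.3, 60.5, 107 and 166 CPM against 32.3, 40.8, 47.7 and 56.6 CPM (1.17 ± 0.12). Amotl2 (0.68 ± 0.13), F3 (0.68 ± 0.07), Lats2 (0.65 ± 0.14) and Vgll4 (0.49 ± 0.08) followed, each higher in 4 of 4 mice, and Wwc1, Amotl1, Wwtr1 and Myof were higher by 0.26 to 0.28, Wwtr1 in 4 of 4 mice and the others in 3 of 4. Arhgef17, which rose after BDL, was lower in positive cells of all 4 mice (-0.46 ± 0.09). Wwc1 and Myof lost their call without either BDL library, Amotl1 without those or sham replicate 2, and Wwtr1 without BDL replicate 2, at 0.19 to 0.27.

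The split by Ccn1 gave the widest set, with 12 of 31 members higher and 3 lower (8.57% of genes called, 5.08% higher and 3.49% lower). Ankrd1 stood at 1387, 1113, 1365 and 1576 CPM in Ccn1-positive cells and 376, 254, 420 and 270 CPM in the rest (log2 ratio 2.07 ± 0.10). Ccn2 (1.51 ± 0.18), Amotl2 (1.17 ± 0.14), Ajuba (0.79 ± 0.22), Lats2 (0.66 ± 0.17) and F3 (0.60 ± 0.11) were also higher, as were Vgll4 (0.49), Wwc1 (0.44), Wwtr1 (0.44), Amotl1 (0.43), Ptpn14 (0.30) and Crim1 (0.29). Tead4 was lower, at 13.1, 13.8, 10.5 and 24.2 CPM in positive against 24.8, 45.8, 11.7 and 34.3 CPM in negative cells (-0.84 ± 0.20, edgeR adjusted p = 0.00944), and so were Arhgef17 (-0.44) and Asap1 (-0.25). Asap1 lost its call without any 1 of the 4 mice (-0.28 to -0.23), Ajuba without each except BDL replicate 1 (0.71 to 0.78) and Ptpn14 without each except sham replicate 2 (0.23 to 0.35). Crim1 lost its call without BDL replicate 2 or sham replicate 1, Amotl1 without BDL replicate 2 (0.35), and Lats2 without BDL replicate 1 (0.63). In this split 16 of the 17 immediate early genes were higher in positive cells too, against 7 of 17 in the Ankrd1 split. Ccn1 is itself known as an immediate early gene. The part of cell handling in these co-variations was not tested.

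Ccn2-positive cells were few, and 4 of 32 members were higher in them and 0 lower by edgeR (1.93% of genes called, 0.608% higher and 1.33% lower). At an unadjusted p under 0.05, 2 members, Asap1 and Arhgef17, were lower. These were Lats2 (32.4, 29.9, 44.3 and 74.7 against 29.7, 22.5, 26.5 and 26.7 CPM, log2 ratio 0.997 ± 0.24), Amotl2 (91.7, 120, 80.6 and 66.4 against 67.1, 60.2, 47.6 and 33.6 CPM, 0.82 ± 0.18), Ankrd1 (0.68 ± 0.10) and Ccn1 (0.63 ± 0.09). Lats2 and Amotl2, known as feedback genes of YAP, were the members called higher in all 3 splits. Lats2 in the Ccn2 split rested on BDL replicate 2, without which its log2 ratio was 0.47 and not called, nor was Amotl2 at 0.74. Lats2 was then not called in the Ccn1 split either (0.39). In the Ccn2 split 8 of 17 immediate early genes were higher and 1 lower. Without BDL replicate 2 the counts of higher members were 6, 7 and 2 in the Ankrd1, Ccn1 and Ccn2 splits, with 4.27%, 5.84% and 1.15% of all genes called. Tead4 was not called lower without either sham library (-0.83 and -0.57). At a depth of 1000 UMIs 7 members were higher in the Ccn1 split (7.88% of all genes called).

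Whether these couplings differed between sham and BDL was tested by a split-by-treatment term, chosen after the data were seen. In the Ccn1 split, 3 members had a larger contrast after BDL, where 1.4% of 11190 genes were called (1.07% larger and 0.331% smaller). By edgeR 0 had a smaller one, against 2 at an unadjusted p under 0.05. F3 was coupled to Ccn1 in the BDL libraries and hardly in the sham libraries: its log2 ratios of positive over negative cells were 0.28, 0.10, 0.97 and 1.002 (difference 0.80 ± 0.12, edgeR adjusted p = 1.4e-06). Dock5, an activator of Rac, changed sign, at -0.42, -0.62, 0.17 and 0.27 (0.75 ± 0.16, adjusted p = 0.00369). Ccn2 had ratios of 1.02, 0.79, 1.17 and 2.30 (0.99 ± 0.27, adjusted p = 0.0333), and BDL replicate 2 decided that call, since the difference was 0.28 without it. Without BDL replicate 2 or sham replicate 2 F3 alone of the 3 was called (Dock5 0.70 and 0.64), and without sham replicate 1 there were 5 calls (2.36% of all genes).

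In the Ankrd1 split, Wwc1 (difference 0.41 ± 0.09), F3 (0.39 ± 0.10) and Ccn1 (0.34 ± 0.08) had larger contrasts after BDL, where 0.606% of 11721 genes were called (0.29% larger and 0.316% smaller). By edgeR 0 members had smaller ones, against 1 at an unadjusted p under 0.05. Wwc1 ratios were -0.04, 0.19, 0.48 and 0.48 in the 4 libraries, and F3 ratios 0.44, 0.51, 0.82 and 0.89. Without either BDL library none of these 3 passed, and without sham replicate 1 Ccn1 alone of them did. In the Ccn2 split 0 members differed between groups by edgeR (0.0712% of 11239 genes called, 0.0623% larger and 0.0089% smaller), against 9 larger and 0 smaller at an unadjusted p under 0.05.

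**Figure D4:**
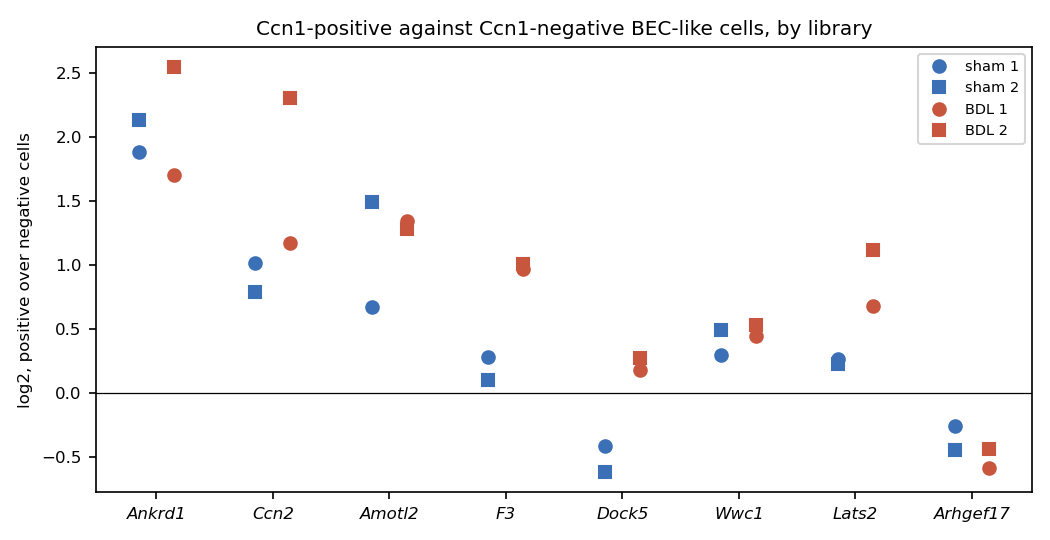
Log2 ratio of CPM in Ccn1-positive over Ccn1-negative BEC-like cells, for 8 members and each of the 4 libraries (blue sham, red BDL). F3 and Dock5 are higher in both BDL libraries than in both sham libraries, while Ankrd1 and Arhgef17 overlap between groups.

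Clustering BEC-like cells again, without the members and without genes that differ between the groups, gave 6 subclusters. The largest, subcluster 0, held 3352 cells (37.3%, 21.7%, 34.1% and 30.2% of the libraries' BEC-like cells), and Ankrd1, Ccn1 and Ccn2 were among its 10 leading genes although none had been used to build it. Ankrd1 was 3.24, 3.46, 3.39 and 3.71 times as high there as in the remaining BEC-like cells, and Ccn1 2.57, 1.93, 2.88 and 3.23 times. Ccn2 was at ratios of 1.03 and 1.10 in sham mice and 2.21 and 3.56 after BDL, and Amotl2 at 0.83, 1.09, 1.54 and 2.28. Tead4 (0.42, 0.22, 0.43 and 0.61) and Arhgef17 (0.67, 0.68, 0.53 and 0.60) were lower there in every library. These ratios describe clusters and carry no test.

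Of 31 members with enough counts, 15 were highest in the same subcluster in all 4 libraries. For 8 core genes (Wwtr1, Tead3, Lats2, Wwc1, Wwc2, Amot, Amotl2 and Ptpn14) that was subcluster 2, whose leading genes include Txnip, Fos, Klf2 and Jun and which held 24.4%, 29.99%, 10.1% and 8.53% of cells. Amotl2, for example, was at 114, 87.0, 94.3 and 88.7 CPM there and at 12.7, 11.5, 33.1 and 27.9 CPM in subcluster 3, led by Dmbt1 and Anxa1. Myof and F3 were highest in subcluster 3 in each library, as was Tead4 (65.2, 82.4, 37.1 and 50.1 CPM). Subcluster 1, led by Nos2, held 7.28% and 3.17% of sham and 30.6% and 40.2% of BDL cells and was low in Ccn2, at 22.9, 26.6, 32.1 and 36.9 CPM. Subcluster 5 was almost wholly sham replicate 2 (342 of 385 cells). The median fold from the lowest to the highest subcluster was 1.91 in core genes and 2.26 in targets, with 7.66 for Ccn2, 6.98 for Amotl2, 5.21 for Tead4, 4.67 for F3, 4.58 for Ccn1 and 4.52 for Ankrd1. At resolution 1, or with genes that differ between groups kept, only 1 member was highest in the same subcluster in every library.

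**Figure D5:**
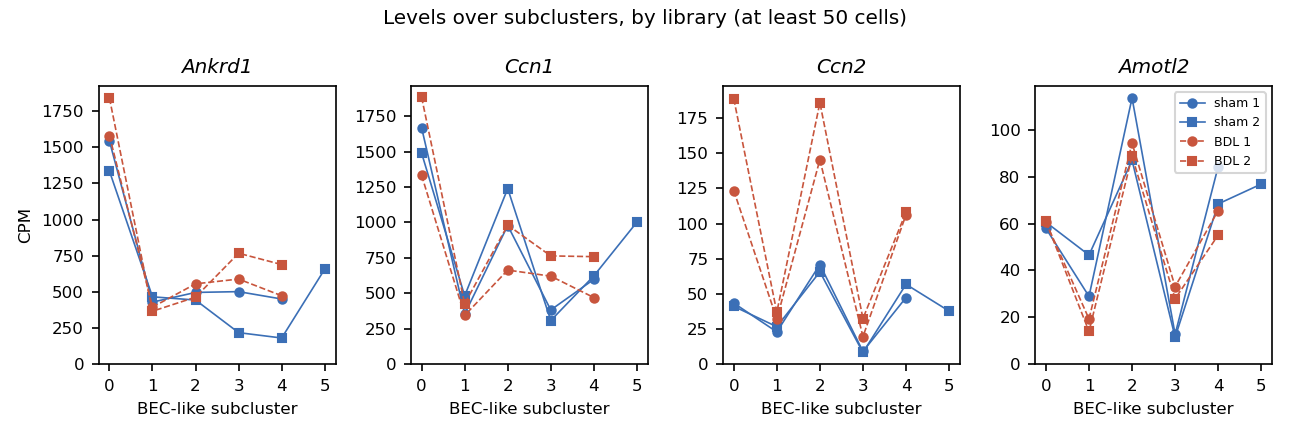
CPM of 4 members in each BEC-like subcluster with at least 50 cells in a library (circles replicate 1, squares replicate 2, blue solid sham, red dashed BDL). Ankrd1 and Ccn1 peak in subcluster 0 in all 4 libraries, Amotl2 peaks in subcluster 2, and Ccn2 is above the sham libraries in both BDL libraries.

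The BDL contrast was then repeated inside the 4 subclusters with 100 cells or more in every library. In subcluster 0, 10 of 35 members were higher and 5 lower (28.8% of genes called, 14% higher and 14.8% lower), in subcluster 2, 5 and 4 of 33 (16.9%, 8.23% and 8.72%), in subcluster 3, 13 and 2 of 33 (14.6%, 7.94% and 6.67%), and in subcluster 4, 3 and 1 of 33 (16.6%, 8.15% and 8.46%). Ccn2 and Myof were higher in all 4, by 1.03 to 1.84 and 0.83 to 1.49 on the log2 scale. Amotl1 and Arhgef17 were higher in subclusters 0, 2 and 3, and Gadd45a was lower in 0, 2 and 4. Tead1 (0.72 and 0.84) and Stk3 (0.97 and 0.77) were higher in subclusters 0 and 3, Asap1 (0.48 and 0.65) in 2 and 3, F3 (0.53 and 1.04) in 0 and 4 and Stk4 (0.54) in 0. Crim1 (-0.70 and -0.62) and Rbms3 (-0.60 and -0.54) were lower in subclusters 0 and 2, Vgll4 (-0.87) in 0 and Nuak2 (-0.85) in 2. Axl was tested in subclusters 0 and 3 and passed the filter in both through the BDL libraries alone, so that it had to differ there, with 1 UMI in each sham library of subcluster 0 and 4 and 5 in those of subcluster 3. The 10 higher members of subcluster 0 include Axl and Tead2, and the 13 of subcluster 3 include Axl. Amotl2 and Ptpn14, lower over all BEC-like cells, were lower in none of the 4 by the test. Amotl2 was at 58.4, 62.5, 61.0 and 59.4 CPM in subcluster 0 (log2 fold change 0.00 ± 0.16) and rose in subcluster 3, from 12.1 and 12.0 to 34.2 and 28.3 CPM (1.35 ± 0.28, edgeR adjusted p = 0.00365).

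Members with no call over all BEC-like cells also differed between the groups within single subclusters. Some finer subclusters at resolution 1 were filled unequally by the groups. One led by Car4 held 189, 468, 18 and 17 cells, and one led by Ptprt and Dmbt1 held 19, 15, 55 and 329. The mix of cells inside a subcluster and a change within cells cannot be told apart, here and in the contrasts above. Yap1 fell in subcluster 0, where Ankrd1 and Ccn1 were highest, from 206 and 239 CPM to 126 and 150 CPM (log2 fold change -0.68 ± 0.15, edgeR adjusted p = 0.0032). It was at 143, 117, 151 and 149 CPM in subcluster 3 (0.21 ± 0.16, adjusted p = 0.449). Whether the change of Yap1 differed between subclusters was not tested. In subcluster 3, Ankrd1 rose from 476 and 228 CPM to 609 and 778 CPM (0.99 ± 0.26, adjusted p = 0.016), Ccn1 from 363 and 322 CPM to 643 and 775 CPM (1.05 ± 0.18, adjusted p = 0.000676), Wwc1 from 356 and 345 CPM to 628 and 587 CPM (0.79 ± 0.16) and Lats2 by 0.97 ± 0.31. Dock5 fell there, from 172 and 218 CPM to 104 and 101 CPM (-0.93 ± 0.17), and so did Tead4 (-0.72 ± 0.21). Tead2 stood at 2.09, 1.06, 6.87 and 11.5 CPM in subcluster 0, with 8 and 2 UMIs in the sham libraries, and passed the filter there through the BDL libraries alone. In all, 24 of the 35 members tested were called in at least 1 of the 4 subclusters, against 36% of 13324 genes. Axl and Tead2, which passed the filter through the BDL libraries alone, are among the 24. At resolution 1 only 3 subclusters had enough cells, and 15 of 34 members were called in at least 1 of them, against 25.4% of 12084 genes.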

How the data were processed

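Fixed liver cells of 4 mice were barcoded by split-pool labelling with random hexamer and oligo(dT) primers, per the labels' protocols. The deposited matrices hold raw counts of UMIs per cell and gene, on GRCm39 per the submitters' processing notes, and the aligner and doublet treatment are not given in the sources used here. Cells with under 500 UMIs (7) or over 20% mitochondrial UMIs (10) were left out. Scrublet marked 14 cells (0.115%), which were dropped, and with so few calls doublets count as not removed. Cells were clustered with scanpy 1.11.5 (2000 variable genes without the members, 30 components, 20 neighbours, Leiden resolution 1, and 0.5 for subclusters). A class needed at least 3 of its markers, and at least 50% of them, at 2-fold and 5% detection. The 50% rule was added after the data were seen.

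UMI sums per mouse were tested with edgeR 4.0.16 (TMM, filterByExpr, quasi-likelihood, two-sided, Benjamini-Hochberg over all genes tested, threshold 0.05). Comparisons within mice used the mouse as a block. SE is the log2 fold change over the square root of F. The edgeR fits were tested on simulated data for 6 comparisons: both BDL contrasts, their difference, BEC-like against mesenchymal-like cells, the Ccn2 split and the treatment term. With 2 mice a group, totals of 10024577 to 33809650 UMIs are the depth, and intervals cover counting error only. In BEC-like cells each called member is named, with Yap1, Wwtr1, the TEAD and LATS genes, Ankrd1, Ccn1 and Ccn2 whatever their values, and elsewhere each called member. Members named beyond these were chosen after their values were seen. The members and lists were chosen with earlier results of these data known. DESeq2 1.42.0, other filters, clusterings, depths and single mice left out were alternatives.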

Additional observations from a re-analysis of the deposited data

Results flagged for a closer look

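The effect of BDL differed between BEC-like and mesenchymal-like cells for 7 members, each by a tested interaction. The differences in log2 fold change, BEC-like minus mesenchymal-like, were 1.23 for Stk3, 1.47 for Ccn2, 1.63 for Asap1, 1.53 for Axl, 2.73 for Igfbp3, 1.603 for Arhgef17 and 1.44 for Nuak2. Without BDL replicate 2, 3 of the 7 were called, and 4 without either sham library. The mesenchymal-like clusters were filled unequally by the groups, and the part of that mix in these differences was not tested.

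The coupling of members to a target within BEC-like cells differed between BDL and sham in 6 cases, by a tested split-by-treatment term added after the data were seen. In the Ankrd1 split the log2 contrast was larger after BDL by 0.41 for Wwc1, 0.34 for Ccn1 and 0.39 for F3. In the Ccn1 split it was larger by 0.99 for Ccn2, 0.80 for F3 and 0.75 for Dock5. With cells thinned to 1000 UMIs, only F3 in the Ccn1 split was still called among these 6 cases. All 3 calls of the Ankrd1 split were lost without either BDL library. In the Ccn1 split F3 alone was called without BDL replicate 2, where Ccn2 was at 0.28, or without sham replicate 2. Cell depth before thinning and immediate early genes also differed between the groups (median 3260 and 2610 against 7058 and 7793 UMIs per cell), and their part was not tested.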

How the results depend on the processing

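No paired analysis was possible because no replicate number in the labels is shared by sham and BDL mice. Vgll3 and Foxf2 had too few UMIs in BEC-like cells to be tested. In BEC-like cells Ccn2, Myof and Stk3 kept their call under all 18 alternatives. Signs turned for Wwtr1 (0.055 with DESeq2, 0.11 with no filter on low counts, 0.12 with the Fos- or Jun-led subclusters removed) and Tead3 (-0.066 at 10 CPM or more, -0.0034 with the highest doublet scores removed, -0.15 in sublibraries 5 to 8, -0.048 in thinned sums). They turned for Tead4 (0.043 with DESeq2, 0.013 with cycling cells removed, 0.11 with no filter, 0.0057 in thinned sums) and Ccn1 (0.028 with the trend with gene span removed). Without single mice Wwtr1 ran from -0.096 to 0.076, Tead3 from -0.30 to 0.29, Tead4 from -0.56 to 0.37 and Ccn1 from -0.36 to 0.017. Of all genes called in BEC-like cells, members or not, 52.5% were higher, against 61.1% with DESeq2 and 62.6% with no filter. In mesenchymal-like cells 3 members were called higher with no filter, where 1052 of 22169 genes were called. With DESeq2 3 were called lower, where 329 of 22169 genes were called. The interaction gave 1 below 0 with no filter or with cells named one by one. At 1000 UMIs the Ccn1 split called 7 higher, and the treatment term called 0, 1 and 1 members in the Ankrd1, Ccn1 and Ccn2 splits (2 in the Ccn2 split with no filter). These interaction and treatment-term counts have no share of all genes beside them, and nothing is read from them. Subclusters at resolution 1 left 1 member highest in the same subcluster throughout, as did keeping differing genes, and 15 called within subclusters. The fold from lowest to highest subcluster became 7.30 for Ankrd1, 5.92 for Ccn1 and 8.86 for Ccn2 at resolution 1, and 6.03 for Ccn2 with differing genes kept. Without thinning the share differences were 20.8, 10.97 and 16.4 points for Ankrd1, Ccn1 and Ccn2. Without single mice, calls higher and lower ran from 3 to 14 and 0 to 5 in BEC-like cells (7.78 to 39.4% of all genes called), 1 to 3 and 4 to 5 in mesenchymal-like cells (6.89 to 12%), and 4 to 7 and 0 to 1 for the interaction (2.57 to 5.7%). Against other classes they ran from 10 to 14 and 13 to 14 (mesenchymal-like, 33.6 to 37.6%), 9 to 11 and 6 to 8 (endothelial-like, 16.8 to 19.5%) and 0 to 4 and 0 to 0 (hepatocyte-like, 1.72 to 4.5%). The splits gave 6 to 11 and 1 to 1 (Ankrd1, 4.27 to 6.02%), 7 to 13 and 1 to 2 (Ccn1, 5.1 to 7.7%) and 2 to 5 and 0 to 0 (Ccn2, 0.928 to 1.82%), and the treatment term 0 to 3, 1 to 5 and 0 to 1 larger, with 0 smaller (0 to 2.36%). The cause of these changes was not tested.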
